A study of Drosophila melanogaster with 18 samples.

Results

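The nuclear genes for subunits of the oxidative phosphorylation machinery were followed in egg chambers of Drosophila melanogaster on a 1-colour Affymetrix genome array. Members were all probe sets that the platform annotation ties to a single gene whose symbol starts with ND-, COX, UQCR, Sdh or ATPsyn, which gave 69 of the 13966 probe sets tested. They stand for 67 genes, since ATPsynC and ND-MNLL have a pair of probe sets each. By symbol, 32 probe sets belong to complex I, 7 to complex II, 4 to complex III, 11 to complex IV and 15 to complex V. By role, 51 report subunits (49 genes), 17 report second copies of a subunit gene, recognised by a symbol that ends in L or in a number after L, and 1 reports Sdhaf3, an assembly factor of complex II. The RefSeq table of gene names holds 88 nuclear genes with such symbols, and 67 of them had a member probe set. A further 4 probe sets that list a gene of this kind together with another gene were not members, and none of them was called in a comparison with wild type.

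Oxidative phosphorylation moves electrons from NADH and succinate through complexes I to IV of the inner mitochondrial membrane to oxygen, and the proton gradient built on the way drives ATP synthesis by complex V. Most subunits are encoded in the nucleus and have to be made in fixed proportions with each other and with the few subunits encoded by the mitochondrial genome. In the ovary, the nurse cells of the germline produce large numbers of mitochondria that pass into the oocyte, and the follicular epithelium around them is where the EGFR and BMP pathways pattern the future eggshell.

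The study changed signalling in that epithelium and profiled RNA from the ovary, taken as hand-dissected egg chambers of stages 9 to 10 from females aged 6 to 8 days kept with yeast for 24 h at 23 °C. Wild type was OreR, and the 4 perturbations carried CY2-GAL4, a driver of expression in follicle cells, with UAS-lambda-Top for EGFR gain of function, UAS-dnEGFR for EGFR loss, UAS-tkv* for BMP gain and UAS-Dad for BMP loss. Each group had 3 samples of 100 egg chambers, divided from 300 per genotype in the labels' account, with 5 collections of 20 chambers listed for each sample. Whether the samples are biological replicates is not clear from the labels, so the p-values rest on a spread between samples that may be technical. Arrays were run in 2 rounds: BMP loss has the wild type B arrays of round 2 as its control, and the other perturbations have those of wild type A in round 1. Driver-only flies were not analysed here, so the driver, the strain background and the pathway cannot be told apart in any comparison with OreR.

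Values are log2 signals as the authors deposited them. The driven transgenes were visible where a probe set reported them: Egfr was higher by 1.87 in EGFR gain on the first of its probe sets, tkv by 1.81 in BMP gain on the first of its probe sets, and Dad by 4.39 in BMP loss. The other Egfr and tkv probe sets did not show the rise, and EGFR loss had no Egfr change that passed the test. The follicle cell markers were bright on every array, with summed linear signals between 31700 and 38900 in round 1 (21800 and 23800 in round 2), and the germline markers summed to 1570 to 2270 (1560 to 1630). EGFR loss replicate 3 stood apart in RNA quality, with an actin control 2.89 log2 units brighter at its 3′ than at its 5′ end against 0.85 to 1.63 on the other round 1 arrays. The GAPDH control parted it less, at 2.68 against 1.78 to 2.45. EGFR gain replicate 3 was the next highest of round 1 on both controls, at 1.63 for actin and 2.45 for GAPDH. In a whole egg chamber, fewer cells of a type and less RNA per cell cannot be told apart.

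The subunit genes gave strong and steady signals. Of the 51 subunit probe sets, 46 lay above the upper quartile of the array on all 18 arrays. Their SD within groups had a median of 0.10 log2 units, against 0.29 over all probe sets. The subunit probe sets that lay above it on no array were the dimmer of the pair for ATPsynC, COX7C and ND-B8, and ND-18 and ND-B12, both of complex I, reached it on 16 and 14 arrays, with their shortfalls in round 2. COX7C is a small nuclear subunit of cytochrome c oxidase, which lay below the lower quartile on all 18 arrays with a mean of -0.90. ND-B8, an accessory subunit of complex I, had a mean of 2.21 and an SD within groups of 1.05. The 17 second copies were dim and variable, with a median SD of 0.52. None of them lay above the upper quartile on all arrays, and COX4L, COX5BL, COX6AL2 and SdhCL lay below the lower quartile on all 18.

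**Figure D1:**
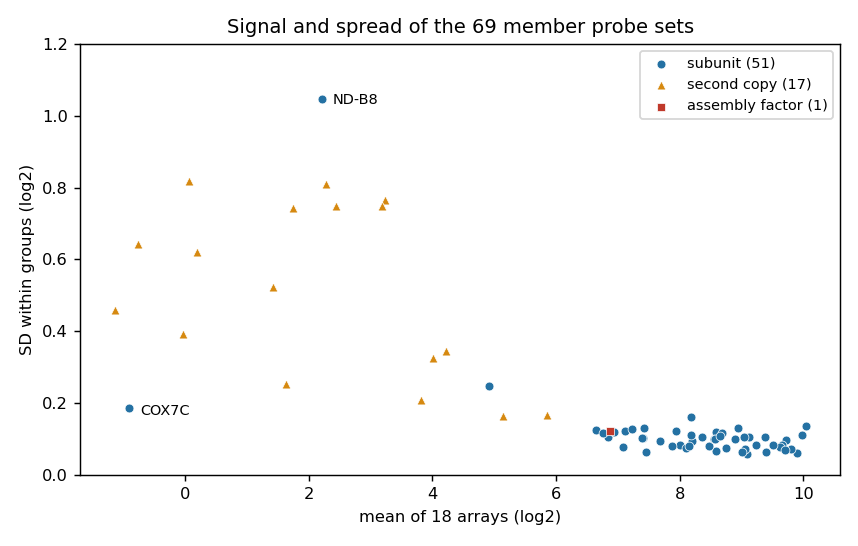
Each point is 1 of the 69 member probe sets, with its mean over 18 arrays (log2, horizontal) and its SD within groups (log2, vertical), by role. Subunits cluster at bright signals with a median SD of 0.10, apart from COX7C, ND-B8 and the dimmer ATPsynC probe set, while the second copies lie to the left with a median SD of 0.52.

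By mean over the 18 arrays, the brightest probe set of complex I was ND-B16.6 at 9.40, that of complex II SdhB at 8.14, that of complex III UQCR-Q at 10.04, that of complex IV COX7A at 9.98 and that of complex V ATPsynD at 9.80. The dimmest were ND-B8, SdhCL at 0.19, UQCR-14L at 1.43, COX4L at -1.13 and ATPsynCF6L at 2.28. These means pool rounds of different scale, and in round 1 alone COX4 was brightest in complex IV (10.04, with COX7A at 10.03) and COX7C and ATPsynepsilonL were dimmest in complexes IV and V. These signals say where each probe set lies on the scale of the array and give no order of abundance, because probe sets respond differently to the same amount of RNA: the probe sets of ATPsynC, the ring subunit of ATP synthase, had means of 9.62 and 4.91. The pair for ND-MNLL gave differences from wild type within 0.04 of each other in all 4 comparisons.

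Most subunit genes stayed close to wild type in every perturbation. The difference from wild type was smaller than 0.2 log2 units in either direction for 45 of 51 subunit probe sets in EGFR gain, 40 in EGFR loss, 45 in BMP gain and 42 in BMP loss. The 95% interval of the difference lay wholly within a 1.5-fold change for 48, 45, 48 and 49 of them in the same order. Among the 49 subunit probe sets at or above the median signal those shares were 98.0%, 91.8%, 98.0% and 98.0%, against 74.9%, 72.4%, 78.0% and 76.1% of all probe sets that bright. The median difference over the 51 was 0.09 in EGFR gain, 0.06 in EGFR loss, -0.01 in BMP gain and 0.08 in BMP loss, beside medians between -0.01 and 0.01 over all probe sets in each.

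The small positive medians came from arrays that overlapped with wild type. Taken array by array against the mean of wild type A, the median over the subunits was -0.08, 0.02 and 0.07 on the wild type A arrays, 0.09, 0.12 and 0.04 on the EGFR gain arrays, and -0.02, 0.10 and 0.10 on the EGFR loss arrays. On the BMP gain arrays it was 0.02, 0.01 and -0.03. The wild type A arrays overlapped with those of each round 1 perturbation, and wild type A replicate 1 was the lowest of the 12. In round 2 the BMP loss arrays gave 0.11, 0.01 and 0.11 against -0.01, 0.03 and 0.00 for wild type B, which overlap too, through BMP loss replicate 2.

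**Figure D2:**
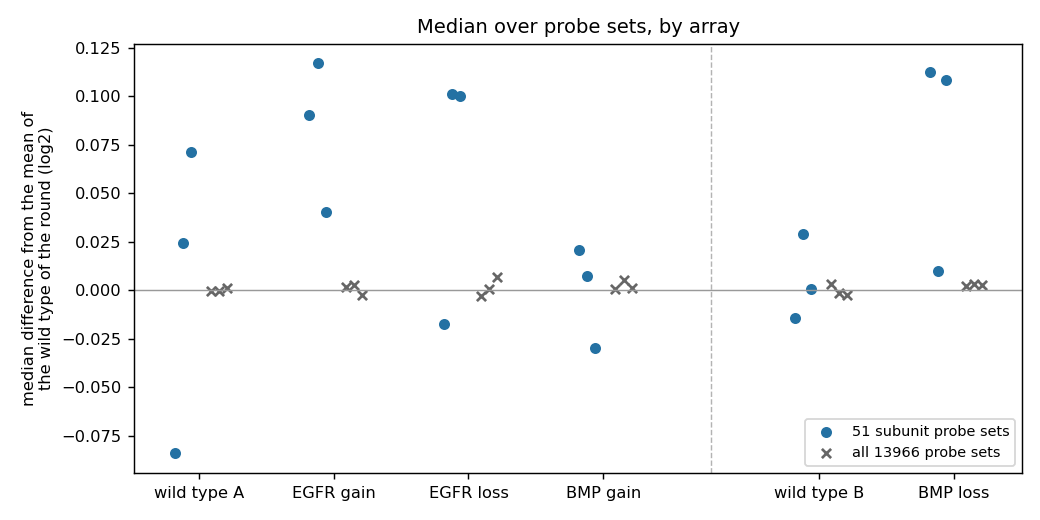
Each circle is 1 array and gives the median, over 51 subunit probe sets, of the difference from the mean of the wild type of its round (log2), and crosses give the same over all 13966 probe sets. The subunit medians run from -0.08 to 0.12, and perturbed arrays overlap with wild type in both rounds (a dashed line parts them).

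Few members passed the test, which was limma on all probe sets with Benjamini-Hochberg adjustment and a threshold of 0.05. In EGFR gain, 0 of 69 members were higher and 2 lower (2.90%), where 2.81% of all probe sets were called, 1.52% higher and 1.29% lower. In EGFR loss 2 were higher and 3 lower (7.25%), where 3.17% of all were called, 1.69% higher and 1.48% lower. In BMP gain 0 were higher and 2 lower (2.90%), where 2.39% of all were called, 1.17% higher and 1.22% lower. In BMP loss 1 was higher and 1 lower (2.90%), where 2.29% of all were called, 1.12% higher and 1.17% lower. The member counts in EGFR gain, BMP gain and BMP loss are thus near the background. The calls in EGFR loss include the dim COX7C. Of the 49 subunit probe sets at or above the median signal, 2.04%, 6.12%, 2.04% and 2.04% were called in the 4 comparisons. Of all probe sets that bright, 4.68%, 5.18%, 4.02% and 3.78% were called. Without adjustment, 9, 12, 8 and 10 members had a p under 0.05 in the 4 comparisons, 13.0%, 17.4%, 11.6% and 14.5% of them, close to the 13.7%, 16.7%, 11.3% and 13.4% of all probe sets.

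Called or not, some members had all 3 perturbed arrays on 1 side of all 3 wild type arrays. Of the 69, 13 lay higher and 7 lower in EGFR gain, where 10.7% and 10.6% of all probe sets did. The counts were 11 and 4 in EGFR loss (10.8% and 10.7% of all), 1 and 10 in BMP gain (10.2% and 10.3% of all) and 10 and 7 in BMP loss (10.4% and 10.6% of all). As shares of the 69, the higher members were 18.8%, 15.9%, 1.45% and 14.5% in that order and the lower ones 10.1%, 5.80%, 14.5% and 10.1%. Bright probe sets parted more often. Of all probe sets at or above the median signal, 14.5%, 14.4%, 13.9% and 14.8% lay higher and 14.9%, 14.4%, 13.9% and 15% lower. Of the 49 subunit probe sets that bright, 26.5%, 20.4%, 2.04% and 20.4% lay higher and 2.04%, 4.08%, 12.2% and 10.2% lower. The round 1 comparisons share their control arrays.

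**Figure D3:**
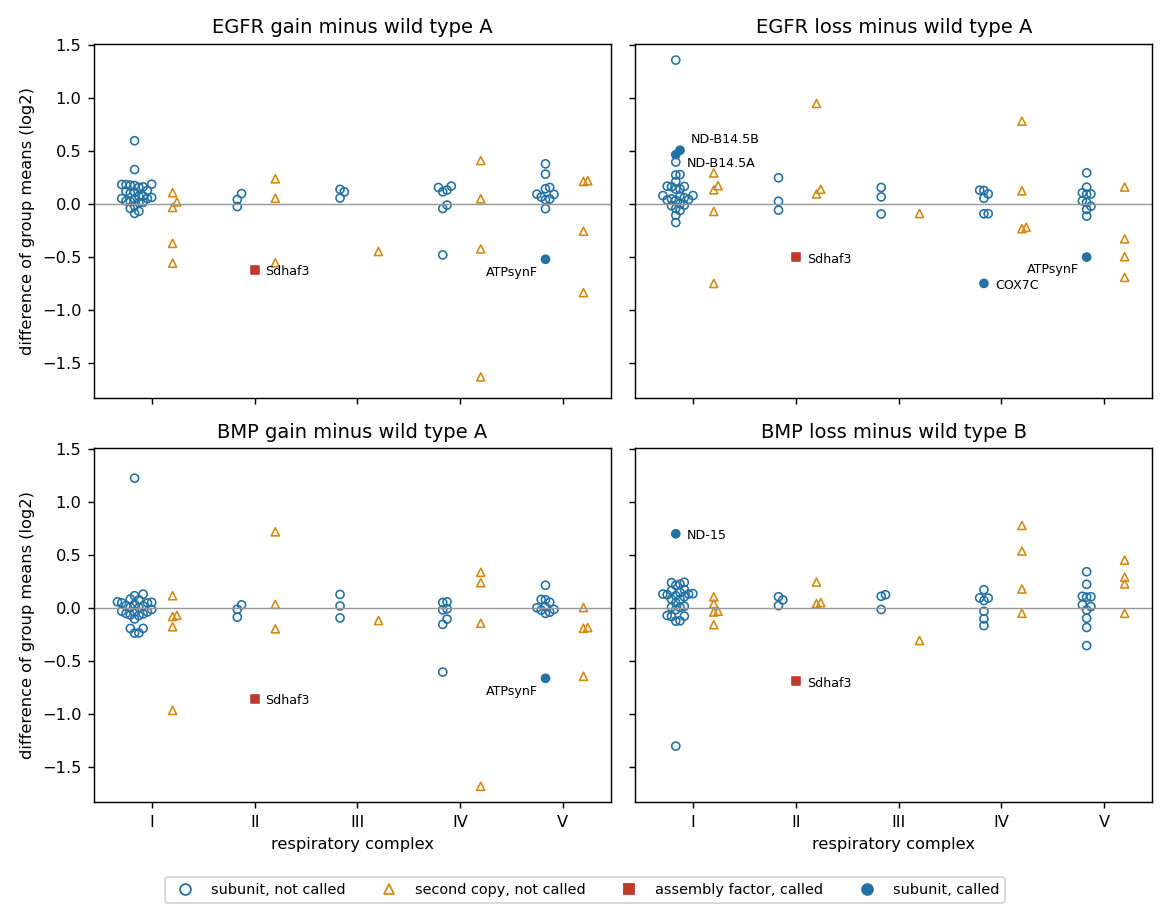
Differences from wild type (log2, vertical) of the 69 members by respiratory complex, 1 panel per comparison, with filled and named symbols for members called at an adjusted p under 0.05. Subunits (circles) crowd around 0 in every complex, Sdhaf3 lies below 0 in all 4 panels, and the widest scatter belongs to uncalled second copies (triangles) and to the dim ND-B8.

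Sdhaf3, which in yeast and flies helps the iron-sulphur subunit of succinate dehydrogenase to mature, was lower than wild type in all 4 perturbations. Its values were 7.43, 7.50 and 7.44 in wild type A, 6.83, 6.85 and 6.83 in EGFR gain, 6.82, 6.86 and 7.18 in EGFR loss, and 6.72, 6.58 and 6.50 in BMP gain. In round 2 they were 6.96, 7.23 and 6.96 in wild type B and 6.34, 6.25 and 6.49 in BMP loss. In each comparison every perturbed array lay below every wild type array, and among the round 1 perturbations the BMP gain arrays were the lowest.

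The fall of Sdhaf3 was largest in BMP gain, at -0.86 ± 0.11 (SE, n = 3 against 3, limma), which is 1.81-fold lower with an adjusted p of 0.000607 and a 95% interval from -1.09 to -0.62. It was -0.69 ± 0.11 in BMP loss (1.61-fold lower, adjusted p = 0.00429 by limma), -0.62 ± 0.11 in EGFR gain (1.54-fold lower, adjusted p = 0.00651) and -0.50 ± 0.11 in EGFR loss (1.42-fold lower, adjusted p = 0.0229). Perturbations that raise and lower the same pathway thus shared the direction. The tests of the differences did not separate them: EGFR gain minus EGFR loss was -0.12 (95% interval -0.35 to 0.12, limma adjusted p = 0.702), and the BMP responses, gain minus loss, differed by -0.17 (-0.50 to 0.16, adjusted p = 0.852). The 3 comparisons of round 1 share the wild type A arrays, and BMP loss has its own. In EGFR loss the call was lost when any array other than EGFR loss replicate 3 was left out, with adjusted p up to 0.0859, while in the other 3 comparisons it held without any single array. Fitted to the arrays of the comparison alone, Sdhaf3 kept its call in BMP gain and not in EGFR gain (adjusted p = 0.0607), BMP loss (0.142) or EGFR loss (0.285).

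None of the complex II subunits measured was called in any comparison with wild type. SdhB, the iron-sulphur subunit, had values of 8.45, 8.69 and 8.60 in wild type A, 8.54, 8.60 and 8.52 in EGFR gain, 8.42, 8.63 and 8.51 in EGFR loss and 8.53, 8.50 and 8.45 in BMP gain. In round 2 SdhB was 7.33, 7.34 and 7.37 in wild type B and 7.44, 7.26 and 7.42 in BMP loss, and in all 4 comparisons the arrays of the groups overlapped. Its differences were -0.03, -0.06, -0.09 and 0.02, and their 95% intervals lay between -0.26 and 0.20. The membrane anchors SdhC and SdhD differed by 0.04 and 0.10 in EGFR gain, 0.24 and 0.02 in EGFR loss, 0.03 and -0.01 in BMP gain and 0.08 and 0.11 in BMP loss, with none called. The flavoprotein subunit SdhA was not analysed here. Among the second copies of complex II genes, SdhAL had the largest rise in the round 1 comparisons, at 0.24, 0.95 and 0.72, and SdhBL in BMP loss, at 0.25, none of them called.

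ATPsynF, subunit f of the membrane part of ATP synthase, was lower than wild type A in all 3 perturbations of round 1. Its values were 9.03, 9.28 and 9.27 in wild type A, 8.64, 8.73 and 8.64 in EGFR gain, 8.54, 8.75 and 8.79 in EGFR loss and 8.55, 8.55 and 8.50 in BMP gain. In round 2 ATPsynF was 8.51, 8.62 and 8.71 in wild type B and 8.12, 8.29 and 8.36 in BMP loss. The perturbed arrays lay below the wild type arrays of their round in each comparison.

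The differences of ATPsynF were -0.66 ± 0.10 in BMP gain (SE, 1.58-fold lower, limma adjusted p = 0.00183), -0.53 ± 0.10 in EGFR gain (1.44-fold, adjusted p = 0.00967) and -0.50 ± 0.10 in EGFR loss (1.42-fold, adjusted p = 0.0125). In BMP loss the difference of -0.35 ± 0.10 did not pass (limma adjusted p = 0.089), though it did with an intensity trend and when dim probe sets were dropped, and it was not shown to differ from the BMP gain response (-0.31, adjusted p = 0.585). Leaving out wild type A replicate 2 or 3 ended the calls in EGFR gain (adjusted p 0.0526 and 0.0513) and in EGFR loss (0.0606 and 0.0635), and the BMP gain call held without any single array. A fit to the arrays of the comparison alone ended all 3 calls, with adjusted p of 0.0791 in BMP gain, 0.16 in EGFR gain and 0.285 in EGFR loss.

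Of the remaining complex V members, the closest to a call was ATPsynbeta, the catalytic beta subunit, on the higher side. Its values were 8.25, 8.14 and 8.09 in wild type A, 8.76, 8.51 and 8.34 in EGFR gain, 8.38, 8.58 and 8.39 in EGFR loss and 8.18, 8.25 and 8.22 in BMP gain, and in round 2 they were 8.20, 8.20 and 8.24 in wild type B and 8.57, 8.54 and 8.55 in BMP loss. Its arrays did not overlap with wild type in EGFR gain, EGFR loss and BMP loss, and they overlapped in BMP gain. The differences were 0.38 (limma adjusted p = 0.0565), 0.29 (0.134), 0.06 (0.924) and 0.34 (0.0955) for EGFR gain, EGFR loss, BMP gain and BMP loss. It passed in EGFR gain and in BMP loss when dim probe sets were dropped or when the moderation followed an intensity trend, and in EGFR gain also with array weights, with 1 probe set per gene and without EGFR gain replicate 3. Its second copy ATPsynbetaL differed by 0.21, 0.16, 0.00 and 0.23, none called. ATPsynCF6, coupling factor 6 of the stalk, gave 0.28, 0.09, 0.22 and 0.22 without a call, and it had the largest rise of complex V in BMP gain. The largest falls among the remaining members were second copies, with ATPsynepsilonL at -0.84 in EGFR gain and ATPsynCF6L at -0.70 in EGFR loss, and ATPsynCF6L had the largest rise in BMP loss at 0.45, none called.

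**Figure D4:**
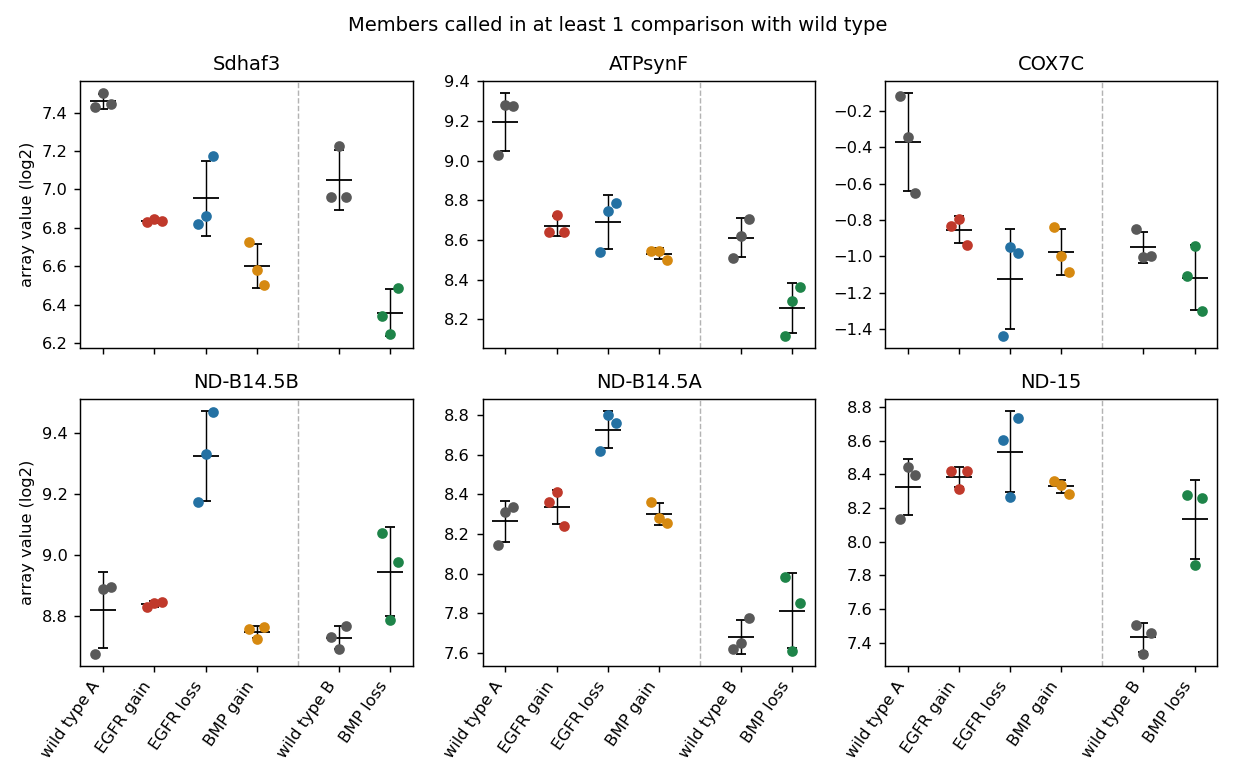
Array values (log2) of the 6 members called in at least 1 comparison with wild type, with the mean and SD of each group of 3 arrays and a dashed line between the rounds; each panel has its own vertical scale. Sdhaf3 and ATPsynF lie below their wild type in every perturbation, ND-B14.5B and ND-B14.5A are highest in EGFR loss, and ND-15 is higher in BMP loss than in wild type B.

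In complex I, 2 accessory subunits rose in EGFR loss and 1 rose in BMP loss. ND-B14.5B, a subunit of the membrane arm, had values of 9.17, 9.33 and 9.47 in EGFR loss, against 8.68, 8.89 and 8.89 in wild type A, 8.83, 8.84 and 8.85 in EGFR gain and 8.76, 8.73 and 8.76 in BMP gain. All 3 EGFR loss arrays lay above the other 9 arrays of the round. The difference from wild type A was 0.51 ± 0.09 (SE, 1.42-fold higher, limma adjusted p = 0.00963, 95% interval 0.30 to 0.71), and it stayed called without any single array.

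The rise of ND-B14.5B in EGFR loss differed from the other round 1 perturbations. EGFR gain minus EGFR loss was -0.49 ± 0.09 (limma adjusted p = 0.0139), and EGFR loss minus BMP gain was 0.58 ± 0.09 (adjusted p = 0.00535). EGFR gain and BMP gain themselves were 0.02 and -0.07 from wild type A. In round 2 its values were 8.73, 8.69 and 8.77 in wild type B and 9.07, 8.79 and 8.98 in BMP loss, a difference of 0.22 that was not called (adjusted p = 0.325 by limma) although the arrays did not overlap. The call between the EGFR perturbations was lost without EGFR gain replicate 1, EGFR gain replicate 2 or EGFR loss replicate 3 (adjusted p 0.0562, 0.0516 and 0.0509), and that against BMP gain held without any array. A fit to the arrays of each comparison alone ended the calls of ND-B14.5B, with adjusted p of 0.281 against wild type A, 0.338 between the EGFR perturbations and 0.24 against BMP gain.

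ND-B14.5A, another accessory subunit of complex I, was also highest in EGFR loss. Its values were 8.62, 8.80 and 8.76 in EGFR loss, 8.15, 8.31 and 8.34 in wild type A, 8.36, 8.41 and 8.24 in EGFR gain and 8.36, 8.28 and 8.26 in BMP gain. Again the EGFR loss arrays lay above all others of round 1. The difference from wild type A was 0.46 ± 0.10 (1.38-fold higher, limma adjusted p = 0.0236) and that from BMP gain was 0.43 ± 0.10 (adjusted p = 0.0447), while EGFR gain minus EGFR loss, at -0.39, missed the threshold (0.0706). In round 2 ND-B14.5A was 7.62, 7.65 and 7.78 in wild type B and 7.98, 7.61 and 7.85 in BMP loss, which overlap. The call against wild type A was kept without EGFR loss replicate 1 and lost without any of the other 5 arrays (highest adjusted p 0.0891), and that against BMP gain was kept in 1 of 6 such fits (highest 0.148); fitted to its own arrays alone the first had an adjusted p of 0.259 and the second 0.323. Its second copy ND-B14.5AL differed from wild type A by 0.13 in EGFR loss (limma adjusted p = 0.697).

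Other complex I subunits with low p in EGFR loss missed the threshold. ND-PDSW differed by 0.39 (limma adjusted p = 0.0728) and ND-B17 by 0.27 (0.0886), both with EGFR loss arrays above wild type A, and both were called with an intensity trend and when dim probe sets were dropped. ND-75 also lay higher with no overlap (0.17, limma adjusted p = 0.257) and ND-SGDH lower with none (-0.18, 0.287). ND-51 and ND-20, core subunits as ND-75 is, differed by -0.04 and 0.14 with arrays that overlapped. The median over all 27 complex I subunit probe sets was 0.08 in EGFR loss, 0.07 in EGFR gain, 0.00 in BMP gain and 0.11 in BMP loss.

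Markers of other tissues differed in several groups. In EGFR loss the changes reached the test. The summed linear signal of 9 muscle probe sets was 218 to 341 in EGFR loss against 124 to 180 in wild type A, with 2 of 9 called higher (Mlc2 and Prm). That of 4 fat body probe sets was 107 to 192 against 45.4 to 72.5, with 2 of 4 called higher (Obp99b and Lsp2). The follicle cell markers summed to 31700 to 33400 against 37600 to 38900, with 3 of 6 lower, and the germline markers to 1570 to 1790 against 2000 to 2250, with 1 of 6 lower. The 10 testis probe sets overlapped with wild type at 68.1 to 101 against 62.4 to 72.2, with 1 higher and 2 of them below the lower quartile on every array. In EGFR gain the muscle sum was lower, at 101 to 118, with 0 called, and the testis sum higher, at 76.2 to 104, with 1 called. In BMP loss the muscle sum was 67.2 to 81.9 against 86.4 to 97.2 in wild type B, with 0 called. The 9 muscle probe sets did not move together there: 2 lay higher and 3 lower with no overlap of arrays (10.4% and 10.6% of all probe sets). Their largest rise was 2.00. The part of these markers in the members' values was not tested. The RNA quality of EGFR loss replicate 3 touches the same results: without it the difference of ND-B14.5B from wild type A was 0.43 and still called, and that of ND-B14.5A was 0.45 and not called (limma adjusted p = 0.0606).

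ND-15, an accessory subunit on the intermembrane space side of complex I, rose in BMP loss. Its values were 8.28, 7.86 and 8.26 against 7.50, 7.33 and 7.46 in wild type B, with no overlap. The difference was 0.70 ± 0.13 (SE, 1.63-fold higher, limma adjusted p = 0.0138, 95% interval 0.41 to 0.99), the largest rise of a called member. In round 1 ND-15 was 8.13, 8.45 and 8.40 in wild type A, 8.42, 8.32 and 8.42 in EGFR gain, 8.60, 8.27 and 8.74 in EGFR loss and 8.36, 8.34 and 8.29 in BMP gain, all of which overlap with wild type A. The BMP gain difference was 0.00, and the BMP responses, gain minus loss, differed by -0.70 without passing the test (limma adjusted p = 0.216, 95% interval -1.11 to -0.29). Leaving out wild type B replicate 2, BMP loss replicate 1 or BMP loss replicate 3 ended the call (adjusted p 0.0551, 0.0649 and 0.0662), as did a fit to the round 2 arrays alone (0.183).

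The largest differences in complex I belonged to ND-B8 and rested on a few arrays. ND-B8 read -0.33, 3.02 and 1.69 in wild type A, 2.72, 2.82 and 0.63 in EGFR gain, 2.60, 3.27 and 2.58 in EGFR loss and 2.52, 2.54 and 3.01 in BMP gain. In round 2 it was 2.32, 2.98 and 3.01 in wild type B and 2.28, -0.09 and 2.22 in BMP loss. Single low arrays in wild type A, EGFR gain and BMP loss set these groups, and the differences of 0.60, 1.36, 1.23 and -1.30 had an SE of 0.81 with no call. Leaving out wild type A replicate 1 turned the EGFR gain difference to -0.30. The largest falls of complex I in round 1 were second copies, with ND-51L1 at -0.56 in EGFR gain and -0.75 in EGFR loss and ND-20L at -0.97 in BMP gain, and their partners ND-51 and ND-20 differed by -0.07, -0.04 and 0.02 in those comparisons, none called.

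No member of complex III was called. UQCR-6.4, UQCR-14 and UQCR-Q, all small nuclear subunits of the cytochrome bc1 complex, differed from wild type by between -0.10 and 0.15 in the 4 comparisons, with no call. UQCR-6.4 had the largest rise in EGFR gain (0.14) and EGFR loss (0.15), UQCR-14 in BMP gain (0.13) and BMP loss (0.13), and UQCR-Q the largest fall in EGFR loss (-0.10). The dim second copy UQCR-14L had the largest fall in EGFR gain (-0.45), BMP gain (-0.11) and BMP loss (-0.30), with an SE of 0.41.

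In complex IV the abundant-signal subunits COX4, COX5A, COX5B, COX7A, COX7B and COX8 lay between -0.15 and 0.17 of wild type in all 4 comparisons. COX7C fell in EGFR loss, with values of -1.44, -0.95 and -0.98 against -0.12, -0.35 and -0.65 in wild type A, a difference of -0.75 ± 0.15 (limma adjusted p = 0.0174). It read -0.83, -0.79 and -0.94 in EGFR gain and between -1.09 and -0.84 in BMP gain, differences of -0.48 (adjusted p = 0.14) and -0.60 (0.0607) that were not called by limma, and it differed by -0.17 in BMP loss. The wild type A arrays were the highest of round 1. Since the probe set lies below the lower quartile on every array, the size of this change depends on how the authors handled background. The EGFR loss call was lost without wild type A replicate 1 or 2 (adjusted p 0.0712 and 0.064), with the intensity trend (0.194), in fits to the round (0.0662) or the comparison's arrays alone (0.32) and with a replicate block (0.0604), and BMP gain gained a call with array weights and without wild type A replicate 3.

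The widest swings of all members were those of COX7AL, a second copy of COX7A. COX7AL read 1.68, 1.64 and -0.08 in wild type A, -0.35, -0.39 and -0.92 in EGFR gain, 0.76, 2.11 and 2.71 in EGFR loss and -0.44, -1.09 and -0.27 in BMP gain. The EGFR gain and BMP gain arrays all lay below wild type A, and those of EGFR loss overlapped with it. The differences of -1.64, 0.78 and -1.68 had an SE of 0.64 and were not called (limma adjusted p 0.251, 0.593 and 0.283), nor was EGFR loss minus BMP gain at 2.46 (adjusted p = 0.0689), which was called with an intensity trend and without EGFR loss replicate 1. EGFR gain minus EGFR loss was also called without EGFR loss replicate 1. Its 0.78 in BMP loss was the largest rise of complex IV there. The partner COX7A differed by 0.17, 0.13, 0.06 and 0.10 in the 4 comparisons. COX6AL2 and COX4L had the largest rises of complex IV in EGFR gain (0.41) and BMP gain (0.34), both below the lower quartile on all arrays and neither called.

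Between perturbations, few further members differed. EGFR gain minus EGFR loss called 0 of 69 higher and 1 lower (1.45%), against 2.10% of all probe sets, 0.952% higher and 1.15% lower. EGFR loss minus BMP gain called 2 higher and 0 lower (2.90%), against 2.00% of all, 1.08% higher and 0.917% lower. These are the ND-B14.5B and ND-B14.5A results above. Sdhaf3 joined the second comparison when dim probe sets were dropped. EGFR gain minus BMP gain called 0 of 69 by limma where 1.27% of all probe sets were called, with 6 members (8.70%) at an unadjusted p under 0.05 against 11.3% of all. The test of the BMP gain against the BMP loss response also called 0, against 0.430% of all, with 6 members (8.70%) at an unadjusted p under 0.05 against 7.97% of all.

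Differences against BMP gain ran mostly 1 way, and few were called. In EGFR gain minus BMP gain 17 of 69 members lay higher with no overlap of arrays (24.6%, against 9.64% of all) and 1 lower (1.45%, against 9.47%). Among the 51 subunit probe sets 16 lay higher and 0 lower, 44 had a difference above 0, and the median was 0.10. Of the 49 at or above the median signal 32.7% lay higher and 0% lower, against 12.4% and 13.1% of all probe sets that bright. A difference above 0 was seen in 87.8% of the 49, against 49.1% of all that bright. In EGFR loss minus BMP gain 14 members lay higher (20.3%, against 9.90% of all) and 1 lower (1.45%, against 10.2%), with a subunit median of 0.07. In EGFR gain minus EGFR loss the counts were 9 and 8 (13.0% and 11.6%, against 8.41% and 8.70% of all), with a subunit median of 0.01. The bright subunit probe sets gave 16.3% and 10.2% there, against 10.5% and 11.3% of all that bright. These comparisons share arrays, and the subunits are not independent of each other.

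Genes that overlap or flank the 6 called members were examined in the same comparisons. Of the 2 protein-coding neighbours on each side, 21 of 24 had a probe set, and none was called in a comparison in which the member was; these neighbours were looked up after the members' values were seen. Mad, the BMP signal transducer that lies beside ND-B14.5B, differed by 0.09 from wild type A in EGFR loss (limma adjusted p = 0.679). In BMP loss, where ND-B14.5B was not called, Mad was 0.36 higher than wild type B and narrowly missed a call (limma adjusted p = 0.0596). ATPsynF overlaps with CG13587, ND-B14.5A with Cyp4d14 and COX7C with oys in the RefSeq table.

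Genes that work beside the members were taken from lists of related pathways. Of 9 oxidative phosphorylation genes under other names (10 probe sets), among them blw, the alpha subunit of ATP synthase, and the cytochrome c1 gene Cyt-c1, limma called 0 in each comparison, with 1, 1, 1 and 2 probe sets at an unadjusted p under 0.05 and medians of 0.06, 0.03, -0.04 and 0.10. Of 8 glycolytic genes it called 0, with 2, 0, 1 and 0 at an unadjusted p under 0.05 and medians of 0.14, 0.09, 0.09 and 0.07. Of 8 regulators of mitochondrial biogenesis it called 0, with 1, 2, 0 and 0 at an unadjusted p under 0.05. Probe sets for subunits of the mitochondrial genome were not analysed here.

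The tricarboxylic acid cycle, which feeds NADH to complex I and shares complex II, had 2 of 11 probe sets higher in EGFR gain, 1 in EGFR loss, 1 in BMP gain and 2 in BMP loss, with 0 lower, against 1.52%, 1.69%, 1.17% and 1.12% of all probe sets called higher. The medians over the 11 were 0.03, 0.06, -0.05 and -0.01. With no overlap of arrays 3, 2, 4 and 3 lay higher and 2, 0, 3 and 2 lower. Over all probe sets these shares were 10.2% to 10.8% higher and 10.3% to 10.7% lower. Idh3b lay below wild type with no overlap in EGFR gain, BMP gain and BMP loss, without a call. Idh3g, the gamma subunit of NAD-dependent isocitrate dehydrogenase, was the gene called in all 4. It read 7.07, 7.26 and 6.96 in wild type A, 7.54, 7.87 and 7.62 in EGFR gain, 7.84, 8.04 and 7.70 in EGFR loss and 7.99, 7.87 and 8.08 in BMP gain, and in round 2 it was 7.06, 7.16 and 6.61 in wild type B and 7.80, 7.79 and 7.89 in BMP loss. Every perturbed array lay above every wild type array of its round, the reverse of Sdhaf3.

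The differences of Idh3g were 0.58 ± 0.14 in EGFR gain (limma adjusted p = 0.0484), 0.76 ± 0.14 in EGFR loss (0.0111), 0.88 ± 0.14 in BMP gain (0.00392) and 0.88 ± 0.14 in BMP loss (0.0053). The EGFR gain call was lost without any 1 of its 6 arrays (highest adjusted p 0.189), the EGFR loss call without wild type A replicate 3 (0.0571), and a fit to the comparison's own arrays ended all 4 calls (0.0598 to 0.201). Scsalpha1, the alpha subunit of succinyl-CoA synthetase, was higher by 0.31 in EGFR gain and by 0.31 in BMP loss (limma adjusted p 0.0366 and 0.041). Its differences in EGFR loss and BMP gain, 0.27 and 0.24, were not called. The first call was lost without any 1 array, and the second was kept in 1 of 6 such fits.

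**Figure D5:**
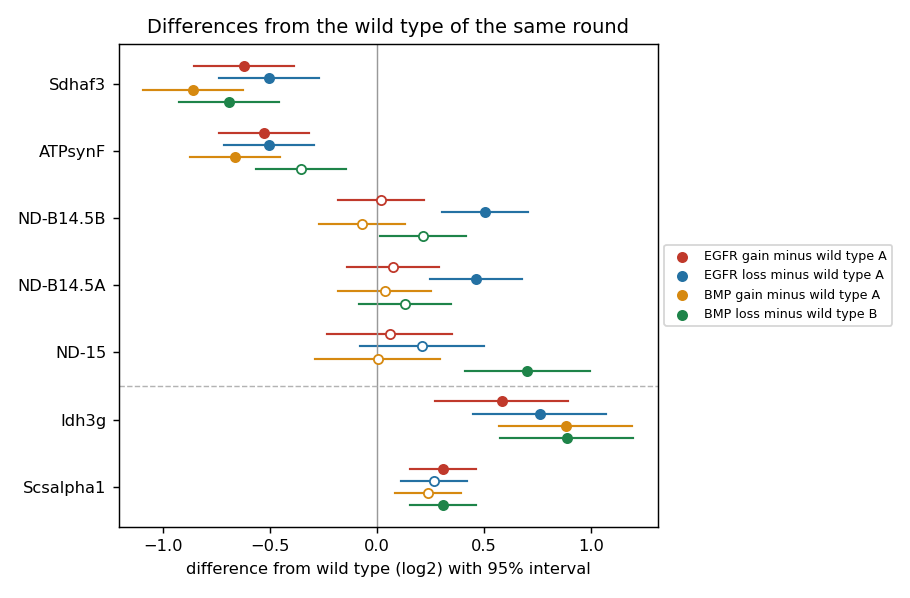
Differences from the wild type of the same round (log2) with 95% intervals for 5 called members. Below the dashed line are Idh3g and Scsalpha1, the tricarboxylic acid cycle genes that were called. Filled circles were called at an adjusted p under 0.05. Sdhaf3 and ATPsynF lie below 0 and Idh3g and Scsalpha1 above 0 in all 4 comparisons, while ND-B14.5B, ND-B14.5A and ND-15 are called in 1 comparison each.

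The late follicle cell markers were lower in sum in BMP gain and in BMP loss, with no overlap of arrays with wild type, and overlapped with wild type in EGFR gain and EGFR loss. Their summed linear signal over 6 probe sets was 4110 to 6600 in wild type A, 2750 to 4930 in EGFR gain, 2200 to 4570 in EGFR loss and 1570 to 2990 in BMP gain, and 2910 to 3670 in wild type B against 1790 to 2060 in BMP loss. Limma called 1, 1, 2 and 0 of the 6 lower in the 4 comparisons. The median differences over these 6 late markers were -0.62, 0.32, -1.02 and -0.29, and 0, 4, 0 and 2 of them lay above 0. With no overlap 0, 1, 0 and 1 lay higher and 2, 2, 4 and 2 lower. Over all probe sets these shares were 10.2% to 10.8% higher and 10.3% to 10.7% lower. The lower sum in BMP loss thus does not stand for all of these markers. The general follicle cell markers were lower in sum with no overlap in all 4 perturbations, at 35100 to 36400 in EGFR gain, 31700 to 33400 in EGFR loss and 35000 to 36200 in BMP gain against 37600 to 38900, and at 21800 to 22400 in BMP loss against 23200 to 23800. Limma called 1, 3, 1 and 1 of the 6 lower, and 1 higher in BMP gain. The median differences over the 6 were -0.11, -0.24, 0.02 and -0.04. In BMP gain 3 lay higher and 2 lower with no overlap (10.2% and 10.3% of all probe sets), and the largest fall was -6.45. The lower sum in BMP gain thus does not stand for most of these markers. In EGFR gain 2 lay higher and 4 lower with no overlap (10.7% and 10.6% of all). Sdhaf3 and ATPsynF were lower and Idh3g higher in the same groups (ATPsynF without a call in BMP loss), and the part of these markers in those differences was not tested.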

How the data were processed

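Total RNA (3 µg per sample) was labelled with biotin and hybridized to 18 arrays, with extraction, labelling and hybridization in parallel within each round, per the labels' protocols. The authors' deposited table holds log2 values per probe set. The submitters' processing notes name affy, with no version, and the background and summary methods are not given in the sources used here. Array medians of 4.44 to 4.51 in round 1 and 4.02 to 4.04 in round 2 show values on a common scale within each round only, so no level was compared across rounds. No further normalization was applied, and 44 control probe sets were left out. No 2 arrays held identical values, and the number of arrays limits the precision.

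Gene names come from the platform annotation, matched by gene number for all 69 members, with 0 names changed, to a RefSeq table whose assembly is Release 6 plus ISO1 MT. A linear model of 6 group means was fitted to the 13966 probe sets (limma 3.58.1, R 4.3.3) with 12 residual degrees of freedom, which assumes a shared spread, and p-values were adjusted over all of them. The fit was tested on simulated data. Named members are every called member, the largest rise and fall of each complex in each comparison, and the brightest and dimmest of each complex, with up to 4 called genes of each further list. The near-called members, second-copy partners, complex II and core complex I subunits, neighbours, Mad and Idh3b were added after their values were seen. The members and lists were chosen with earlier results of these data known. A planned search for promoter motifs was not run, and no sequence was used here. Alternatives changed the arrays in the fit, the moderation, array weights, the normalization, the filter on dim probe sets and the choice of probe sets.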

Additional observations from a re-analysis of the deposited data

Results flagged for a closer look

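In 3 results the responses of perturbations that share a wild type differed by a test of the difference itself (limma, Benjamini-Hochberg adjusted over all probe sets). ND-B14.5B was lower in EGFR gain than in EGFR loss by -0.49 log2 units, in 3 of 3 arrays against 3 of 3 (adjusted p = 0.0139). ND-B14.5B was higher in EGFR loss than in BMP gain by 0.58 with no overlap of arrays (limma adjusted p = 0.00535). ND-B14.5A was higher in EGFR loss than in BMP gain by 0.43 with no overlap of arrays (limma adjusted p = 0.0447), the weakest of the 3.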

How the results depend on the processing

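Quantile normalization and 1 probe set per gene kept every count of called members within 1.5 times its value in all 8 comparisons. Updated symbols changed no member, so that setting repeats the main result and tests nothing. Fits limited to a comparison's own arrays called 0 members in EGFR gain, 0 in EGFR loss, 1 in BMP gain, 0 in BMP loss, 0 in EGFR gain minus EGFR loss and 0 in EGFR loss minus BMP gain; these fits have fewer residual degrees of freedom. Fits to the round alone called 3 in EGFR loss, 0 in BMP loss, 0 in EGFR gain minus EGFR loss and 1 in EGFR loss minus BMP gain. Subunits alone gave 1 in EGFR gain, 1 in BMP gain and 1 in BMP loss, since Sdhaf3 is no subunit. An intensity trend gave 4 in BMP loss and 2 in EGFR gain minus EGFR loss, dropping dim probe sets gave 4 and 2, and centring each array gave 2 in the latter, with ND-B14.5A added. Array weights gave 1 in EGFR loss minus BMP gain. The cause of these moves was not tested.

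Replicate numbers did not pair the samples: same-numbered arrays had correlations of deviations from -0.0244 to 0.0245, with 0 pairs over 0.1. A replicate block called 2 members in EGFR loss and 1 in EGFR loss minus BMP gain. Without single arrays the called members ranged from 1 to 3 in EGFR gain, 1 to 4 in EGFR loss, 2 to 3 in BMP gain, 1 to 2 in BMP loss, 0 to 2 in EGFR gain minus EGFR loss and 1 to 3 in EGFR loss minus BMP gain, and the median over members from 0.04 to 0.08, 0.02 to 0.10, -0.03 to 0.01 and 0.06 to 0.12 in the comparisons with wild type.

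The median in BMP gain, near 0, thus changed sign. Signs were checked for the called members and for the largest rise and fall of each complex. Among these, signs turned only in uncalled dim probe sets, given here as the range without single arrays. The signs of the other named members, some with differences near 0, were not checked. COX6AL2 in EGFR gain ranged from -0.34 (without EGFR gain replicate 1) to 0.81, and ND-B8 from -0.30 (without wild type A replicate 1) to 1.38. UQCR-14L in BMP gain ranged from -0.49 to 0.33 (without wild type A replicate 3), and was 0.12 without BMP gain replicate 3. In BMP loss UQCR-14L ranged from -0.514 to 0.0553 (without wild type B replicate 3), and ATPsynCF6L from -0.0935 (without BMP loss replicate 1) to 0.833. Dim signal limits the second copies, COX7C and ND-B8.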
